A study of Mus musculus with 4 samples.

Results

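The comparison described here set the library labelled KO at 12 h of interleukin-4 (IL-4) against the library labelled WT at the same time, in mouse bone marrow-derived macrophages. Its members were the genes that reached 5 CPM (a gene's counts per 1000000 counts of its library) in at least 1 of these 2 libraries. This took in 9390 of the 14936 genes of the deposited table, or 62.9%, and these genes held 99.5% of the counts of the KO-labelled library and 99.6% of those of the WT-labelled library. At least 5 CPM was reached in both libraries by 9079 members, in the KO-labelled library alone by 183 and in the WT-labelled library alone by 128. Just inside the limit stood Hcst, with 3.94 CPM in the KO-labelled library and 5.004 CPM in the WT-labelled library, and just outside it stood Ehbp1, with 4.99 and 4.09 CPM in the same order.

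The KO-labelled library came from macrophages described as Phlpp1-deficient, although the genotype label of this library misspells the gene, and the WT-labelled library from wild-type macrophages. Bone marrow cells of both genotypes were cultured with M-CSF at 20 ng/ml and then given IL-4 at 20 ng/ml for 12 h, so that every library was from IL-4-treated cells and none was from untreated cells. A further pair of libraries, labelled KO and WT at 24 h of IL-4, is used only as background. Each genotype had 1 library at each time, so no difference below has a replicate check or a p-value. The sources used here do not give the strain, age or sex, how the deficiency was made, or which libraries share an animal or a culture.

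Macrophages that meet IL-4 take on an alternatively activated state. The cytokine binds a receptor made of the IL-4 receptor alpha chain and a partner chain, JAK kinases phosphorylate the transcription factor STAT6, and STAT6 turns on genes for arginine metabolism, lectins, chitinase-like proteins and cell fusion. PHLPP1, the product of Phlpp1, dephosphorylates and so restrains the kinase AKT, which acts downstream of PI3K in the response to IL-4 and to M-CSF. Type I interferon works through another STAT complex that binds the interferon-stimulated response element (ISRE).

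The promoters of 5 genes to which the results return are shown first. Each runs from 250 bases before to 50 bases after the gene's start, on the plus strand of GRCm38.p6, as given by RefSeq. Capitals mark every match to a STAT6 motif, TTCNNNNGAA, which reads the same on both strands, or to the ISRE motif, TTTCNNTTTC or GAAANNGAAA on the other strand. Tmem26, Pdcd1lg2 and Retnla are IL-4-induced genes that were higher in the KO-labelled library, and Ifit3 and Ifit1 are interferon-induced genes that were lower in it.
Tmem26 (chr10:68723496-68723795): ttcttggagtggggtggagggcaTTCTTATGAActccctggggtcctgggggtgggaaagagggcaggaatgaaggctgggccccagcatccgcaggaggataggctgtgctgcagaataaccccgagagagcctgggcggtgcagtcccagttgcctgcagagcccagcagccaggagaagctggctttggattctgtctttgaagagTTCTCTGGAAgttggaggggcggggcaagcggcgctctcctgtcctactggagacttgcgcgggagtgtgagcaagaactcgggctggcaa
Pdcd1lg2 (chr19:29410669-29410968): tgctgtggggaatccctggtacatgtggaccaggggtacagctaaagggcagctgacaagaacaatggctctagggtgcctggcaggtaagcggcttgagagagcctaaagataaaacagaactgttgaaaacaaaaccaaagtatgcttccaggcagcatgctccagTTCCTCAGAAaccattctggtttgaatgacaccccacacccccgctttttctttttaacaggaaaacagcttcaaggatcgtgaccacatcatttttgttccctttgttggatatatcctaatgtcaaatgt
Retnla (chr16:48842359-48842658): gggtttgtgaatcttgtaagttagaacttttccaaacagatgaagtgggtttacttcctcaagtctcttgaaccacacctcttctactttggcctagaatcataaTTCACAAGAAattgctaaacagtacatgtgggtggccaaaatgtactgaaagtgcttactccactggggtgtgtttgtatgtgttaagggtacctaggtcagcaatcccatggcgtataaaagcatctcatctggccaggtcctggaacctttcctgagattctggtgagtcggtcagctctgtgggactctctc
Ifit3 (chr19:34583279-34583578): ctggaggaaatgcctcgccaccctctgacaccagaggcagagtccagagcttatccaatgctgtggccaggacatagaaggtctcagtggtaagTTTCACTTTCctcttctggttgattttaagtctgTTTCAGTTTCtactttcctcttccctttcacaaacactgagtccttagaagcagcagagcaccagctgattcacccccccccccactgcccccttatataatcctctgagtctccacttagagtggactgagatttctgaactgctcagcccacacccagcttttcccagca
Ifit1 (chr19:34640639-34640938): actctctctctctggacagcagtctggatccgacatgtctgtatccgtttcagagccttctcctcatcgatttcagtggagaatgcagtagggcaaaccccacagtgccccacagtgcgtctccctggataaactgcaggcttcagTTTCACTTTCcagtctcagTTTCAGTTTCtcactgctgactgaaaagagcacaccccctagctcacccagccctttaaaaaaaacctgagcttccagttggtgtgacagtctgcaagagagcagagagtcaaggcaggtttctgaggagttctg
Tmem26 held a pair of STAT6 matches, starting 227 and 41 bases before the first transcribed base. Pdcd1lg2 held 1, starting 82 bases before it, and Retnla 1, starting 145 bases before it. Ifit3 held a pair of ISRE matches, 156 and 122 bases before the start, and Ifit1 held a pair, 104 and 85 bases before it. A match describes the letters of this window and is not shown to be a bound site.

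Phlpp1 (chromosome 1, 106171752 to 106394250) is the gene named in the genotype, and its level ran opposite to the labels. Phlpp1 had 1751 counts in the KO-labelled library and 490 counts in the WT-labelled library at 12 h, which is 43.9 and 11.7 CPM, and 63.6 and 15.2 CPM in the KO- and WT-labelled libraries at 24 h. The KO-labelled library was thus 3.74-fold higher at 12 h, with an exact 95% counting interval of 3.39 to 4.15. Counts per gene do not show whether an exon is missing, so these values do not tell which cells lacked the protein, and every direction below is that of the labels as deposited. Its paralog Phlpp2 had 11.3 CPM in the KO-labelled library and 9.62 CPM in the WT-labelled library. The totals were 39864159 counts in the KO-labelled library and 41770309 in the WT-labelled library at 12 h, against 36707999 and 37155457 at 24 h. The defining macrophage genes Csf1r and Cd68 gave high counts in both 12 h libraries, at 2054 and 2121 CPM in the KO-labelled library and 2060.1 and 2135 CPM in the WT-labelled library. Of 17 macrophage markers, described below, 14 were lower in the KO-labelled library and 3 higher.

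Most members differed little between the libraries. The ratio used throughout is log2 of the CPM plus 1 in the KO-labelled library over the CPM plus 1 in the WT-labelled library, so a positive value is higher in the KO-labelled library. The median ratio of the members was 0.05, the middle 50% lay between -0.07 and 0.16, and the middle 90% between -0.32 and 0.39. Above 0 lay 5798 members (61.75%), and below 0 lay 3592. At least 2-fold higher were 45 members (0.479% of all members) and at least 2-fold lower 32 (0.341%), or 0.82% either way. At 1.5-fold, 192 members were higher (2.04%) and 127 lower (1.35%), or 3.4% either way. These are rules of size and not tests. A member at 5 CPM in 1 library alone could enter only by being higher there: this holds for 20 of the 45 and 15 of the 32, so that among the 9079 members at 5 CPM in both libraries 25 were 2-fold higher and 17 lower, and 140 and 93 at 1.5-fold. The balance of the directions depended on the scaling: with TMM, which sets the bulk of the genes level, 36 members were 2-fold higher and 38 lower, and 151 were 1.5-fold higher and 167 lower. With TMM 4623 members lay above 0 (49.23%). Past 2-fold were 2.84% of the members below a mean of 10 CPM, 0.478% of those between 30 and 100 CPM, 0 of 409 between 300 and 1000 CPM and 0 of 90 above that, as the plot of ratio against level shows. Of the 38 members past 2-fold below a mean of 10 CPM, 34 were at 5 CPM in 1 library alone. Of the 1028 members below that mean that were at 5 CPM in both libraries, 4 were past 2-fold (0.389%), where the limit itself keeps larger ratios out.

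**Figure D1:**
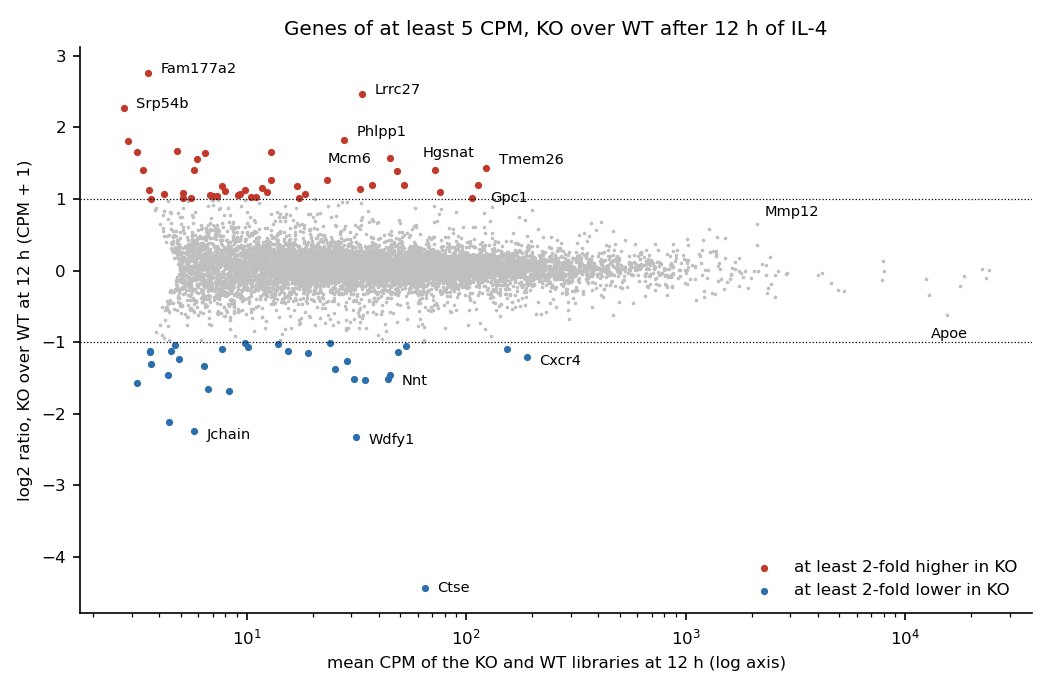
Ratio of the KO-labelled over the WT-labelled library at 12 h (log2 of CPM + 1, vertical axis) against the mean CPM of both libraries (horizontal log axis), 1 point per member. Red points are the 45 members at least 2-fold higher and blue points the 32 at least 2-fold lower in the KO-labelled library, dotted lines mark 2-fold, and Ctse lies furthest from 0, at -4.43.

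Genes that IL-4 induces in macrophages stood higher in the KO-labelled library as a group. Of 43 listed effectors, 32 were members, and 12 of these were at least 1.5-fold higher and 1 lower, beside 2.04% and 1.35% of all members. Their median ratio was 0.41, beside 0.05 over all members, and 28 of the 32 lay above 0, beside 61.75% of all members. Of the 12, 10 were at 5 CPM or more in both libraries, and Dcstamp and Rhoj in the KO-labelled library alone. Tmem26, which encodes a membrane protein that also marks beige fat cells, had 180.3 CPM in the KO-labelled library and 66.4 CPM in the WT-labelled library, a 2.72-fold difference (exact 95% counting interval 2.60 to 2.84). Arg1, the arginase that turns arginine into ornithine and urea, had 70.4 CPM in the KO-labelled library and 26.1 CPM in the WT-labelled library (2.70-fold, 2.51 to 2.89). Pdcd1lg2 (PD-L2, a ligand of the T cell receptor PD-1) had 52.0 CPM in the KO-labelled library and 22.1 CPM in the WT-labelled library (2.36-fold, 2.18 to 2.55). At 24 h Tmem26 had 177 CPM in the KO-labelled library and 61.4 CPM in the WT-labelled library, Arg1 50.5 and 28.1 CPM, and Pdcd1lg2 48.2 and 23.3 CPM. For all 3 genes both KO-labelled libraries stood above both WT-labelled ones, though the ratio of Arg1 was smaller at 24 h, at 0.82 beside 1.40 at 12 h.

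Other listed effectors, at high and low counts, differed to varied degrees. Mmp12, the macrophage elastase, had 2571 CPM in the KO-labelled library and 1640.2 CPM in the WT-labelled library, a ratio of 0.65. Retnla, a secreted protein of alternatively activated macrophages, had 171 CPM in the KO-labelled library and 91.9 CPM in the WT-labelled library (ratio 0.89). It had 412 and 167 CPM in the KO- and WT-labelled libraries at 24 h, so the KO-labelled library at 12 h was about level with the WT-labelled library at 24 h. The mannose receptor gene Mrc1 (ratio 0.58, with 1528 CPM in the KO-labelled and 1021 CPM in the WT-labelled library) and the chitinase-like gene Chil3 (0.42) lay just short of 1.5-fold or below it. The lectin genes Mgl2 (1.14) and Clec10a (0.80) are close copies whose reads the counting may have split, so their separate values are uncertain. Flt1, a receptor for vascular growth factors, Fn1, which encodes fibronectin, and Slc7a2, an arginine transporter, had ratios of 0.90, 0.82 and 0.69. Dcstamp, needed for macrophage fusion, had 9.56 CPM in the KO-labelled library and 4.31 CPM in the WT-labelled library. Against the group, F13a1, a subunit of coagulation factor XIII that IL-4 induces strongly in human monocytes, had 11.5 CPM in the KO-labelled library and 26.6 CPM in the WT-labelled library (ratio -1.15). The fatty acid receptor gene Cd36 (ratio -0.25) and the transglutaminase gene Tgm2 (-0.29) lay below 0 within 1.5-fold. Alox15, Ccl17, Ccl24, Chil4 and 7 other listed effectors stayed under 5 CPM in both libraries. Stromal markers, described below, were higher in the same library, with a summed level of 338 CPM in the KO-labelled library and 222 CPM in the WT-labelled library, and their part in the effector values was not tested.

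**Figure D2:**
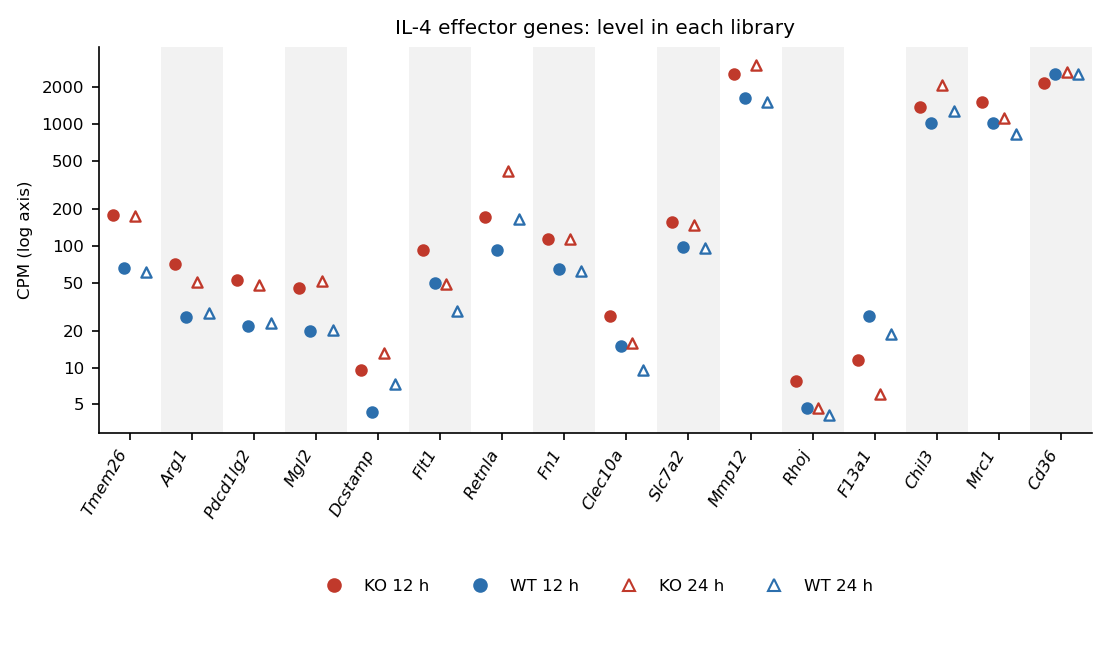
CPM (log axis) of the 13 IL-4 effector genes past 1.5-fold at 12 h and of Chil3, Mrc1 and Cd36 in each of the 4 libraries, with filled circles for 12 h, open triangles for 24 h, red for KO-labelled and blue for WT-labelled libraries. The red marker stands above its blue partner at both times in every gene drawn except F13a1, which is lower at both times, and Cd36, which is lower at 12 h only.

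In the chain from receptor to STAT6, Il4ra and Stat6 were nearly level, while Jak3 was higher in the KO-labelled library. Il4ra, the receptor's alpha chain, had 77.2 CPM in the KO-labelled library and 83.4 CPM in the WT-labelled library, and Stat6 itself had 270.3 and 271 CPM. Of 19 members of the receptor, JAK-STAT6 and feedback list, 3 were 1.5-fold higher, beside 2.04% of all members, and 0 lower. The median ratio was 0.04 (-0.01 with TMM). Those 3 were the feedback inhibitors Cish and Socs1 and the kinase gene Jak3, which pairs with the common gamma chain. Cish had 16.6 CPM in the KO-labelled library and 6.92 CPM in the WT-labelled library (2.40-fold, exact 95% counting interval 2.08 to 2.76). Socs1 had 22.0 CPM in the KO-labelled library and 11.5 CPM in the WT-labelled library, and its 24 h values were closer together, at 12.2 and 10.9 CPM. Il13ra1, the alternative partner chain, stood the other way within 1.5-fold, at 12.4 CPM in the KO-labelled library and 18.3 CPM in the WT-labelled library.

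Transcription factors of the IL-4 response stood in both directions. Of 19 members, 3 were at least 1.5-fold higher and 3 lower, beside 2.04% and 1.35% of all members. The median ratio was 0.19. The higher ones were Batf3, a partner of other AP-1 and IRF factors (ratio 0.95), Myc (0.75) and Irf4, which is required for much of the alternative programme in mouse macrophages (0.64, with 21.3 CPM in the KO-labelled and 13.4 CPM in the WT-labelled library). The lower ones were Id3 (-1.37), Id1 (-1.04) and Maf (-0.64). Id1 reached 5 CPM in the WT-labelled library alone. Id3 and Id1 encode proteins that block basic helix-loop-helix factors and are targets of BMP and TGF-beta signals. Id3 had 13.5 CPM in the KO-labelled library and 36.7 CPM in the WT-labelled library. Egr2, an early target of STAT6, and Pparg, the lipid-sensing receptor, lay above 0 within 1.5-fold (0.38 and 0.28).

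Among effectors with a promoter in the RefSeq table, 8 of 21 held the STAT6 motif (38.1%), beside 6.52% of the members and 8.01% of all genes with a promoter. These 8 were Tmem26, Pdcd1lg2, Retnla, Rhoj, Itgax, Il1rn, Clec7a and Cd36. Their ratios ran from -0.25 to 1.43 with a median of 0.50, and 4 of them were 1.5-fold higher. The 13 effectors without the motif in this window had a median of 0.42, and 3 were 1.5-fold higher and 1 lower. Of the members at least 2-fold higher, 30 had a promoter and 4 of these held the STAT6 motif (13.3%), Tmem26 and Pdcd1lg2 among them. Of the members at least 2-fold lower, 21 had a promoter and 2 of these held it (9.52%). Among the type I interferon genes described next, 5 of 25 with a promoter held it (20%).

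Genes of the type I interferon response stood lower in the KO-labelled library. Of 36 listed genes 33 were members. Of these, 4 were at least 1.5-fold lower and 0 higher, beside 1.35% and 2.04% of all members. The median ratio was -0.19, with 28 of the 33 below 0, beside 3592 of all 9390 members. With TMM the median was -0.24, with 30 of the 33 below 0, beside 4767 of all members. The 4 were genes of the IFIT family, whose products bind viral RNA or the host's translation machinery. Of these, 3 were at 5 CPM or more in both libraries, and Ifit3b in the WT-labelled library alone. Ifit3 had 30.3 CPM in the KO-labelled library and 68.0 CPM in the WT-labelled library, so it was 2.24-fold lower in the KO-labelled library (exact 95% counting interval 2.10 to 2.40). Ifit2 had 86.6 CPM in the KO-labelled library and 145 CPM in the WT-labelled library, and Ifit1 had 25.6 and 41.1 CPM. Ifit3b is a near-copy of Ifit3 that may share its reads, and its own ratio of -0.97 is uncertain. Rsad2, which encodes the antiviral enzyme viperin, had a ratio of -0.56, Irf7, which amplifies interferon production, -0.55, and Oas3, a sensor of double-stranded RNA, -0.51. TMM lowered the list's median, so members just short of 1.5-fold, Rsad2 and Irf7 among them, may pass under it. Ifi44 stood the other way, at 35.9 CPM in the KO-labelled library and 26.98 CPM in the WT-labelled library.

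The IFIT genes stood closer together at 24 h, to different degrees. Ifit3 then had 22.7 CPM in the KO-labelled library and 37.5 CPM in the WT-labelled library, a ratio of -0.70 that was still past 1.5-fold, and of the 33 interferon members 3 were 1.5-fold lower and 1 higher at 24 h. Ifit1 then had 24.2 CPM in the KO-labelled library and 24.9 CPM in the WT-labelled library, and Rsad2 had 51.8 and 53.4 CPM. For both genes the WT-labelled library at 12 h stood above the other 3 libraries. Irf7 kept its distance, with 138 CPM in the KO-labelled library and 223 CPM in the WT-labelled library at 24 h. Of the interferon genes with a promoter, 14 of 25 held the ISRE motif (56%), beside 3.94% of the members and 3.99% of all genes, and Ifit1 and Ifit3, shown above, were among them. The median ratio was -0.23 in the 14 with the motif and -0.12 in the 11 without it.

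Interferon-inducible GTPases and HIN-200 sensors, which restrict intracellular pathogens and sense DNA, had 2 of 22 members 1.5-fold lower and 0 higher. Their median was -0.17, with 19 below 0. Over all members 1.35% were 1.5-fold lower, and 3592 of 9390 lay below 0. Gvin3, a very large inducible GTPase, had 9.38 CPM in the KO-labelled library and 21.6 CPM in the WT-labelled library at 12 h, against 9.998 and 9.47 CPM at 24 h. Iigp1 had 9.21 CPM in the KO-labelled library and 19.0 CPM in the WT-labelled library at 12 h (ratio -0.97), and its ratio at 24 h was -0.24. In both genes the WT-labelled library at 12 h was the highest of the 4.

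**Figure D3:**
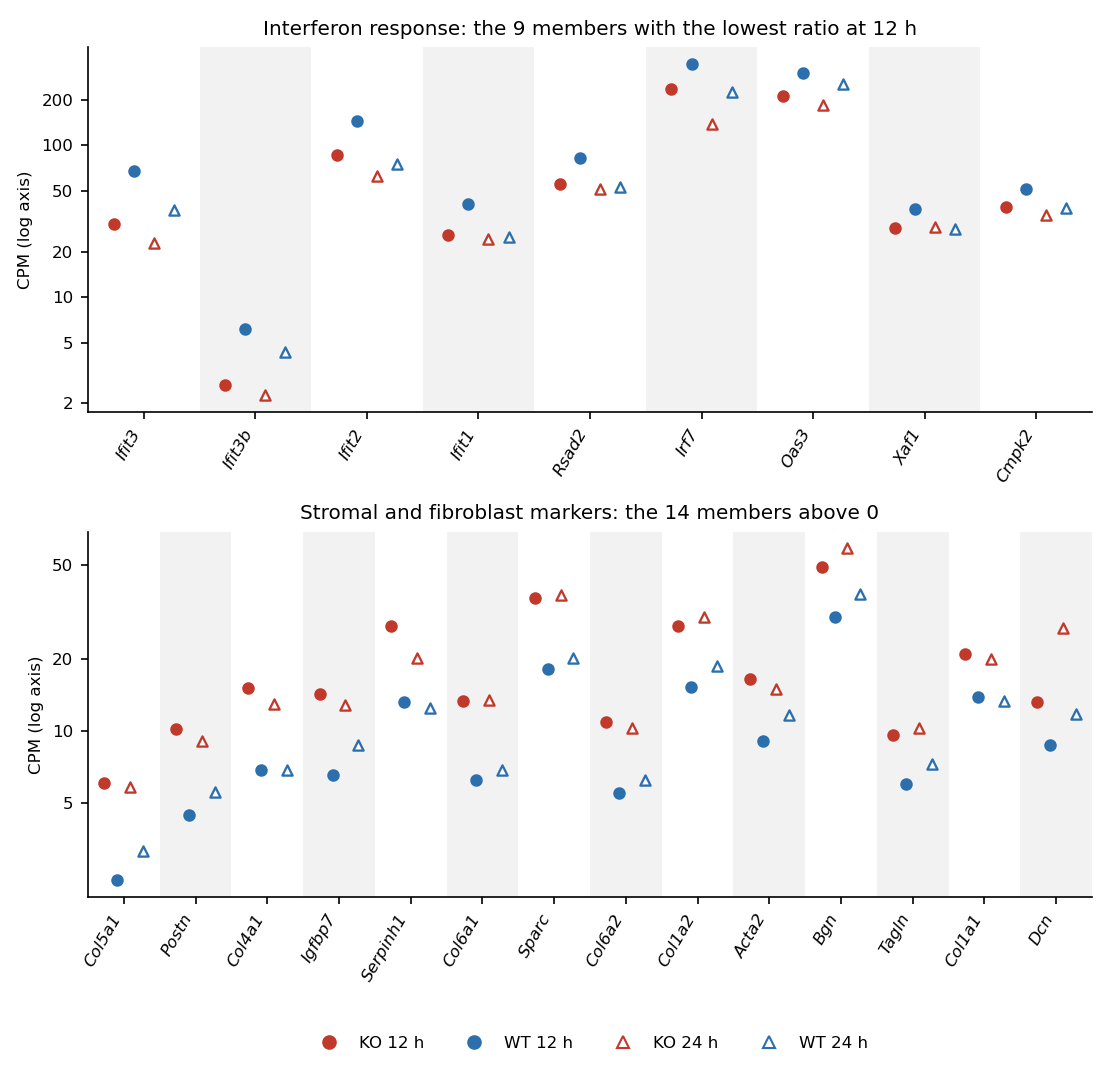
CPM (log axes) in each of the 4 libraries of the 9 type I interferon genes with the lowest ratio at 12 h (upper panel) and of the 14 stromal and fibroblast markers with a ratio above 0 (lower panel), with filled circles for 12 h, open triangles for 24 h, red for KO-labelled and blue for WT-labelled libraries. Blue circles are the highest marker in all 9 interferon genes, and red markers stand above their blue partners in all 14 stromal genes at both times.

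Receptors for the uptake of modified lipoproteins, microbes and dying cells stood lower in the KO-labelled library. Of 25 members of this list, 7 were 1.5-fold lower (5 of them at 5 CPM or more in both libraries) and 0 higher. The median ratio was -0.32, and 23 lay below 0. Over all members 1.35% were 1.5-fold lower, and 3592 of 9390 lay below 0. Colec12, a scavenger receptor with a collagen-like stalk and a lectin domain, had 15.6 CPM in the KO-labelled library and 46.4 CPM in the WT-labelled library (2.98-fold lower, exact 95% counting interval 2.72 to 3.26). Stab1, a receptor for oxidised lipoprotein and phosphatidylserine, had 368 CPM in the KO-labelled library and 566 CPM in the WT-labelled library. The fungal-pattern lectin genes Clec4d (-0.68) and Clec4n (-0.82) and the bacterial receptor gene Marco (-0.61) were past 1.5-fold too. Cd209g (-2.12) and Cd209f (-1.46) belong to a family of close copies, and their values are uncertain.

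Fc receptor and complement genes had 5 of 25 members 1.5-fold lower, beside 1.35% of all members, and 0 higher, with a median of -0.33. Of the 5, 3 were at 5 CPM or more in both libraries. Fcgr1, the high-affinity receptor for IgG, had 89.4 CPM in the KO-labelled library and 169.7 CPM in the WT-labelled library (1.90-fold lower, exact 95% counting interval 1.82 to 1.98), with a ratio of -0.92 at both times. The complement genes Cfb (-0.95) and C4b (-1.12) were lower, while C3 lay at 0.10. The inhibitory receptor gene Fcgr2b stood the other way, at 422 CPM in the KO-labelled library and 302 CPM in the WT-labelled library (ratio 0.48). Jchain, the joining chain of polymeric antibodies, had 1.35 CPM in the KO-labelled library and 10.1 CPM in the WT-labelled library. Of the lymphocyte and plasma cell markers in the table, 3 of 17 were members, Cd3e had 4 counts in the KO-labelled library and 6 in the WT-labelled library, and the list's summed levels were 157 and 150.2 CPM. Sdc1 alone gave 117 and 90.4 CPM of these sums, and the other 2 members, Jchain among them, lay below 0. The part of such cells in the Jchain value was not tested.

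Macrophage markers as a list lay on the same side. Of 17 members 3 were 1.5-fold lower (Fcgr1, Aif1 and Maf), beside 1.35% of all members, and 0 higher, and the median was -0.29. The summed level of the list was 26267 CPM in the KO-labelled library and 31250 CPM in the WT-labelled library. The lysozyme gene Lyz2 made up much of this sum, with 11278 CPM in the KO-labelled library and 14303 CPM in the WT-labelled library. Csf1r, Cd68, Spi1 and Itgam lay between -0.01 and 0.03. Toll-like receptors and their adaptors had 1 of 24 members past 1.5-fold, Wdfy1, which was lower, and a median of -0.11. In bulk RNA, fewer cells of a type and less RNA per cell cannot be told apart. Neutrophil and granulocyte precursor markers lay lower as well, with 2 of 14 members 1.5-fold lower, 0 higher, a median of -0.33 and a summed level of 1086 CPM in the KO-labelled library and 1312 CPM in the WT-labelled library. Of the 2, Camp was at 5 CPM or more in both libraries and Cxcr2 in the WT-labelled library alone. The granule gene Ngp had 246 CPM in the KO-labelled library and 334 CPM in the WT-labelled library, and Ly6g, which defines mature neutrophils, had 1 and 0 counts. Markers of mast cells, basophils and eosinophils (1 of 12 in the table a member, summed level 23.7 CPM in the KO-labelled library and 26.8 CPM in the WT-labelled library), of erythroid cells and megakaryocytes (3 of 14, 85.6 and 103 CPM) and of dendritic cells (4 of 13, 305 and 297 CPM) gave low sums, and Batf3 alone among these members passed 1.5-fold. Bst2, which is also on the interferon list, gave 266 CPM of the dendritic cell sum in each 12 h library. Whether any of these cell types bear on the uptake and Fc receptor values was not tested.

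Chemokine genes stood in both directions, with 4 of 18 members 1.5-fold higher and 4 lower, beside 2.04% and 1.35% of all members. The higher 4 were the monocyte attractants Ccl2 and Ccl7 and the related Ccl6 and Ccl9. Ccl2 had 38.2 CPM in the KO-labelled library and 19.1 CPM in the WT-labelled library, and Ccl7 had 43.8 and 22.3 CPM. Ccl6 had 508 CPM in the KO-labelled library and 316 CPM in the WT-labelled library, and Ccl9 had 456 and 286 CPM. All 4 lie on chromosome 11, between 82035571 and 83593087, and Ccl5, at 83525778 to 83530518, stood the other way, with 46.7 CPM in the KO-labelled library and 81.2 CPM in the WT-labelled library. The receptor genes Cxcr4 (114 CPM in the KO-labelled library and 264 CPM in the WT-labelled library), Ccr2 (-0.76) and Cxcr2 (-0.77) were lower. Cxcr2 reached 5 CPM in the WT-labelled library alone. Of 21 integrin and adhesion genes, Itgad (-1.52) and Itga6 (-0.81), which encode alpha chains that pair with the beta 2 and beta 1 or beta 4 chains, were lower and Itgb7 was higher (0.62).

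Stromal and fibroblast markers showed the highest median of the 36 lists, 0.81. Of 17 members 12 were 1.5-fold higher, beside 2.04% of all members, and 0 lower. Of the 12, 10 were at 5 CPM or more in both libraries. Their counts were low, and their summed level was 338 CPM in the KO-labelled library and 222 CPM in the WT-labelled library at 12 h, and 357 and 260 CPM at 24 h. Sparc, a collagen-binding matrix protein gene, had 36.2 CPM in the KO-labelled library and 18.2 CPM in the WT-labelled library. Col1a2, a chain of type I collagen, had 27.6 CPM in the KO-labelled library and 15.3 CPM in the WT-labelled library, and Postn, which encodes periostin, had 10.3 and 4.45 CPM. The list was not uniform: Pdgfrb had 3.01 CPM in the KO-labelled library and 2.66 CPM in the WT-labelled library, below the limit for members. Fstl1 (-0.18), Cxcl12 (-0.23) and Igfbp4 (-0.23) lay below 0, Lum had 3 counts in the KO-labelled library and 13 in the WT-labelled library, and Thy1 had 8 and 44. No listed marker was at 0 in both libraries.

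Most listed cell cycle genes stood slightly higher in the KO-labelled library. All 19 mitosis members lay above 0 (18 with TMM), beside 61.75% of all members (49.23% with TMM). Of the 19, 14 were at 5 CPM or more in both libraries. Their median as a list was 0.42, and 1 was past 1.5-fold, Prc1, which bundles the spindle's midzone (0.69). Of 22 DNA replication genes 4 were 1.5-fold higher (2 with TMM), beside 2.04% of all members, and 0 lower, with a median of 0.31. Of the 4, 2 were at 5 CPM or more in both libraries, and Mcm10 and Ccne1 in the KO-labelled library alone. Below 0 lay 3 of the 22, among them Pcna, the most abundant gene of the list. Pcna had 360 CPM in the KO-labelled library and 370 CPM in the WT-labelled library (ratio -0.04). Mcm6 stood apart from the other subunits of the replicative helicase, with 67.6 CPM in the KO-labelled library and 22.2 CPM in the WT-labelled library (3.05-fold, exact 95% counting interval 2.83 to 3.29). Mcm2, Mcm3, Mcm4, Mcm5 and Mcm7 had ratios of 0.32, 0.21, 0.18, 0.42 and 0.46. Ccnd1, the cyclin that mitogens induce in G1, had 104 CPM in the KO-labelled library and 48.1 CPM in the WT-labelled library, and was picked after its value was seen.

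Metabolic lists lay closer to 0. Of 39 nuclear-encoded respiratory chain genes, 0 passed 1.5-fold in either direction, and 36 lay above 0 with a median of 0.12 (27 and 0.07 with TMM). Over all members, 61.75% lay above 0 (49.23% with TMM). Nuclear genes of fatty acid oxidation and the TCA cycle, 34 members, had 0 past 1.5-fold and a median of 0.11. The serine synthesis genes Psat1 (46.1 CPM in the KO-labelled library and 25.5 CPM in the WT-labelled library) and Phgdh (30.5 and 17.7 CPM) were the 2 of 21 members of the serine and ATF4 list past 1.5-fold, both higher. NRF2, glutathione and redox genes had 21 of 28 members below 0, beside 3592 of all 9390 members, and a median of -0.19. At 1.5-fold, 1 was higher (Gstp1, 0.69) and 1 lower, beside 2.04% and 1.35% of all members. The lower one was Nnt, the mitochondrial transhydrogenase that makes NADPH, with 23.5 CPM in the KO-labelled library and 66.0 CPM in the WT-labelled library. Gclm and Gsr, of glutathione synthesis and recycling, both lay at -0.48, and the haem oxygenase gene Hmox1 lay at -0.35.

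Lipid and lysosomal genes included some of the highest counts. Apoe, the apolipoprotein that loads cholesterol leaving the cell, had 12242 CPM in the KO-labelled library and 18832 CPM in the WT-labelled library (ratio -0.62), and was the 1 of 20 LXR and cholesterol efflux members past 1.5-fold. Abca1 (-0.39) and Abcg1 (0.36), which export cholesterol, stood in opposite directions within 1.5-fold. Sterol and fatty acid synthesis had 0 of 27 members past 1.5-fold and a median of 0.06. Among 35 lysosomal members the median was -0.01, with 2 higher and 1 lower at 1.5-fold. Of these, Hgsnat was at 5 CPM or more in both libraries, Ctsf in the KO-labelled library alone and Ctse in the WT-labelled library alone. Hgsnat, the acetyltransferase of heparan sulphate breakdown, had 105 CPM in the KO-labelled library and 39.0 CPM in the WT-labelled library, while the high-count cathepsin genes Ctsd (-0.10) and Ctsb (-0.07) lay close to 0.

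Genes of the pathway in which PHLPP1 acts were close to level apart from Phlpp1. Of the other 32 members of the PHLPP, AKT and PI3K list, 0 passed 1.5-fold, and their ratios ran from -0.34 (Pik3ap1) to 0.35 (Pik3r6). Akt1 had 319 CPM in the KO-labelled library and 320.3 CPM in the WT-labelled library. FoxO transcription factors are held out of the nucleus by active AKT, and of 21 of their listed targets 1 was 1.5-fold higher, the mitophagy gene Bnip3 (0.67), and 1 lower, the lipid receptor gene S1pr1 (-0.82), with a median of -0.04.

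The remaining lists gave mixed or small differences, to be read beside 2.04% of all members 1.5-fold higher and 1.35% lower. Of 20 NF-kB inflammation genes, Ccl2 and Ccl7 were higher and Nfkbiz (-1.23) and Ccl5 lower, with a median of 0.09. Nfkbiz reached 5 CPM in the WT-labelled library alone. Of 22 immediate early genes, Myc, Ier3 (0.68) and Fosl2 (0.61) were higher and Fos (-0.74) and Dusp1 (-0.68) lower. Of 22 genes of TGF-beta, SMAD and ID proteins 3 were higher (1 with TMM) and 3 lower, with a median of -0.12 and 13 below 0. Lrrc32, which holds latent TGF-beta at the cell surface, had 20.1 CPM in the KO-labelled library and 5.70 CPM in the WT-labelled library, and the latent TGF-beta binding protein genes Ltbp3 (0.63) and Ltbp2 (0.60) were higher too, while Skil, an inhibitor of SMAD proteins, was lower (-0.77), as were Id3 and Id1, given above. Of 16 metalloproteinase genes and inhibitors 3 were higher (1 with TMM, Mmp12). Heat shock genes had 0 of 16 past 1.5-fold and 14 above 0 (13 with TMM), beside 61.75% of all members (49.23% with TMM). MHC class II genes had 0 of 10 past 1.5-fold, with Cd74 at 1060.5 CPM in the KO-labelled library and 1364 CPM in the WT-labelled library. Glycolysis and hypoxia genes had 1 of 27 past 1.5-fold (Bnip3), with a median of 0.08 (0.02 with TMM). Vegfa, at -0.55, lay just short of 1.5-fold lower and may pass with TMM. Macrophage fusion and osteoclast genes had 1 of 13 past 1.5-fold (Dcstamp). The plot of all 36 lists gives every member's ratio.

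**Figure D4:**
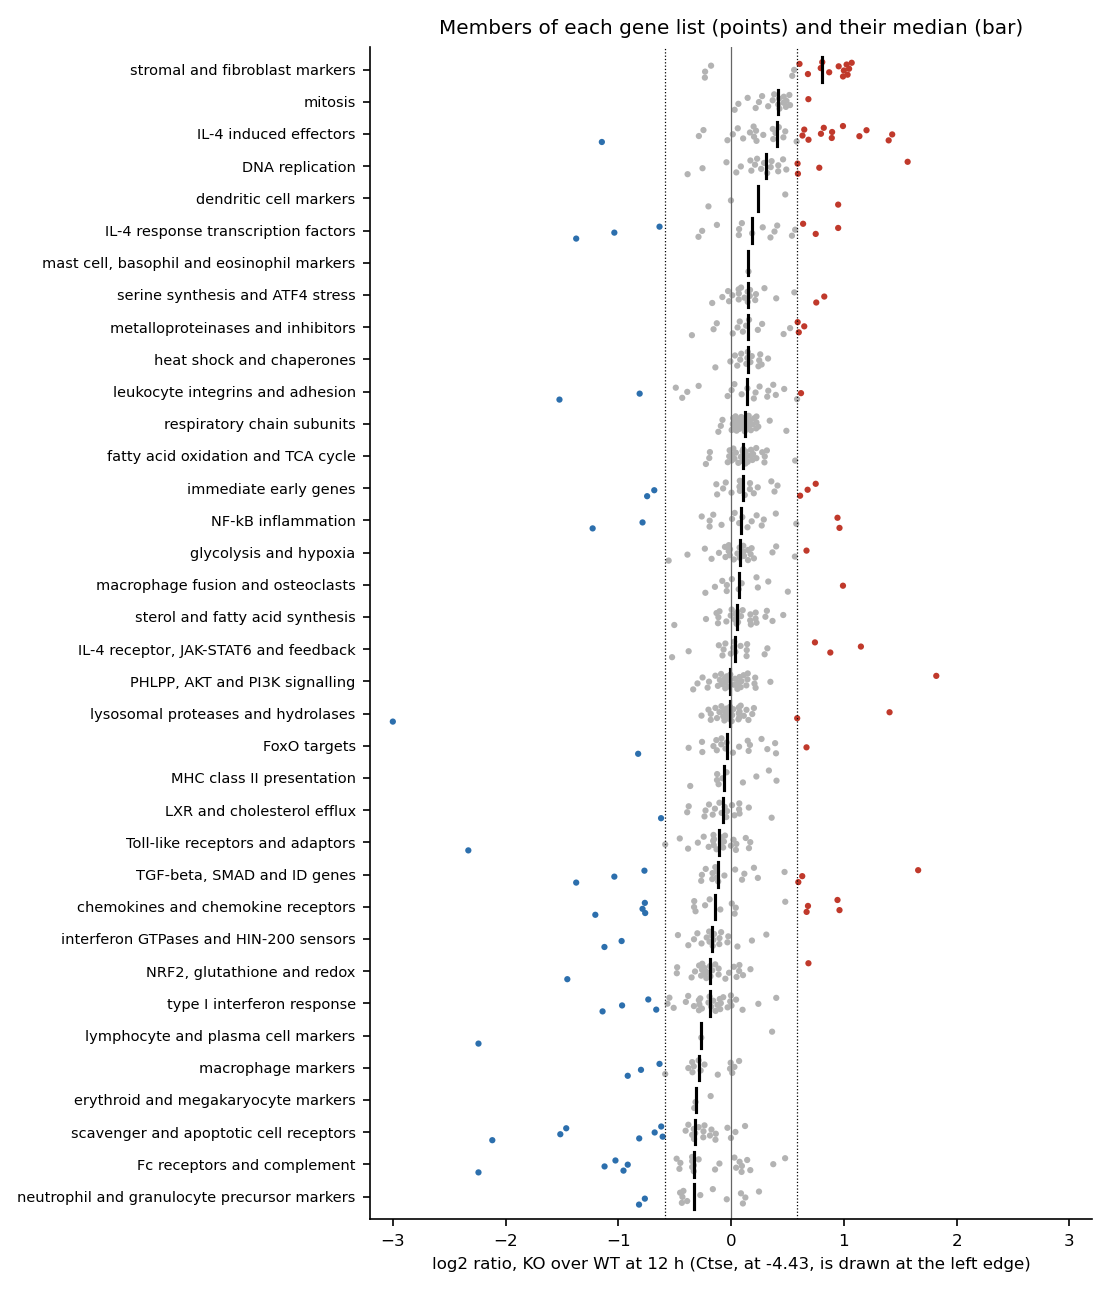
Ratio of the KO-labelled over the WT-labelled library at 12 h (log2 of CPM + 1) for the members of 36 gene lists, ordered by their median (black bar), with points past 1.5-fold in red (higher) or blue (lower) and dotted lines at 1.5-fold. Stromal and fibroblast markers stand at the top with a median of 0.81 and neutrophil markers at the bottom with -0.33, while most lists lie within 0.2 of 0.

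The members furthest from 0 were of several kinds. Ctse, an intracellular aspartic protease (chromosome 1, 131638306 to 131675505), had 193 counts in the KO-labelled library and 5210 in the WT-labelled library, or 4.84 and 125 CPM, and 7.03 and 132 CPM in the KO- and WT-labelled libraries at 24 h. At 12 h it was 25.8-fold lower in the KO-labelled library (exact 95% counting interval 22.3 to 29.9). Wdfy1, an adaptor for Toll-like receptors 3 and 4 (chromosome 1, 79702262 to 79776143), had 9.81 CPM in the KO-labelled library and 53.4 CPM in the WT-labelled library. Lrrc27, a leucine-rich repeat gene on chromosome 7, had 57.2 CPM in the KO-labelled library and 9.58 CPM in the WT-labelled library (5.98-fold higher, 5.37 to 6.66). For Ctse and Wdfy1 both KO-labelled libraries stood below both WT-labelled ones, and for Lrrc27 above them. The lipid and solute genes Cers4 (-1.65), Fabp7 (-1.68) and Slc13a3 (-1.51) and the surface antigen gene Ly6a (-1.26) were further members at least 2-fold lower. Of these, Cers4 and Fabp7 reached 5 CPM in the WT-labelled library alone. Rbp4, which carries retinol, was higher (1.64), as was Vipr1, a receptor for vasoactive intestinal peptide (1.81, on 200 counts in the KO-labelled library and 30 in the WT-labelled library). Both reached 5 CPM in the KO-labelled library alone.

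A pair of these genes was high in the KO-labelled 12 h library alone. Fam177a2 had 6.92 CPM in the KO-labelled library and 0.168 CPM in the WT-labelled library at 12 h, against 0.572 and 0.215 CPM at 24 h. Srp54b had 5.22 CPM in the KO-labelled library and 0.287 CPM in the WT-labelled library at 12 h, against 0.436 and 0.592 CPM at 24 h. Both belong to families of near-identical copies between which reads can be divided, so their ratios, 2.76 and 2.27 at 12 h, are uncertain. The copies Srp54a and Srp54c lay at 0.24 and 0.11. Eif3j2, another recent copy, had a ratio of 1.41 and is uncertain for the same reason.

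Members at least 2-fold apart were spread over the chromosomes unevenly. Chromosome 1 held 10 of them, Phlpp1 itself included, among 533 members, or 1.88%. Chromosome 19 held 7 of 352, or 1.99%, beside 0.82% over all members. Within 50 Mb of Phlpp1 on chromosome 1, 8 of 271 other members were at least 2-fold apart (2.95%), and further away on that chromosome 1 of 261 (0.383%). Of the 8, 3 were higher and 5 lower, and Wdfy1, Col6a3, Gpc1, Steap3, Mcm6, Cxcr4 and Ctse were among them. Within 10 Mb there were 12 members and 0 of them were 2-fold apart. Steap3, a ferrireductase gene, had 97.5 CPM in the KO-labelled library and 210.1 CPM in the WT-labelled library. These distances were chosen after the values were seen.

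Most of the 12 h differences had the same direction in the 24 h pair, which shares no library with the 12 h pair. Whether libraries of the same label share an animal or a culture is not given, so the 24 h pair cannot serve as a replicate. Of the 45 members at least 2-fold higher at 12 h, 44 were above 0 at 24 h and 20 were again at least 2-fold higher, with a median ratio of 1.17 at 12 h and 0.82 at 24 h. Of the 32 at least 2-fold lower, 30 were below 0 at 24 h and 21 were again at least 2-fold lower, with medians of -1.24 and -1.23. Among the members at 5 CPM in both 12 h libraries, 25 of 25 higher and 16 of 17 lower ones had the same sign at 24 h. Over all members 64.7% had the same sign at both times, 0.405% were at least 2-fold higher at 24 h and 0.288% at least 2-fold lower. At 1.5-fold, 185 of the 192 higher members and 122 of the 127 lower ones had the same sign at 24 h, and 95 and 59 again passed 1.5-fold in that direction, beside 2.57% of all members higher at 24 h and 1.02% lower (3.59% either way). Across the 9390 members, which are not independent replicates, the ratios at both times had a Pearson r of 0.58 and a Spearman rho of 0.39. Ctse (-4.43 at 12 h and -4.05 at 24 h), Lrrc27 (2.46 and 2.55) and Mcm6 (1.57 and 1.60) stayed near the same ratio. Cers4 (-1.65 and -2.49) and Rbp4 (1.64 and 2.21) lay further from 0 at 24 h, and Id1 (-1.04 and -0.24) and Socs1 (0.88 and 0.15) lay closer to 0.

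**Figure D5:**
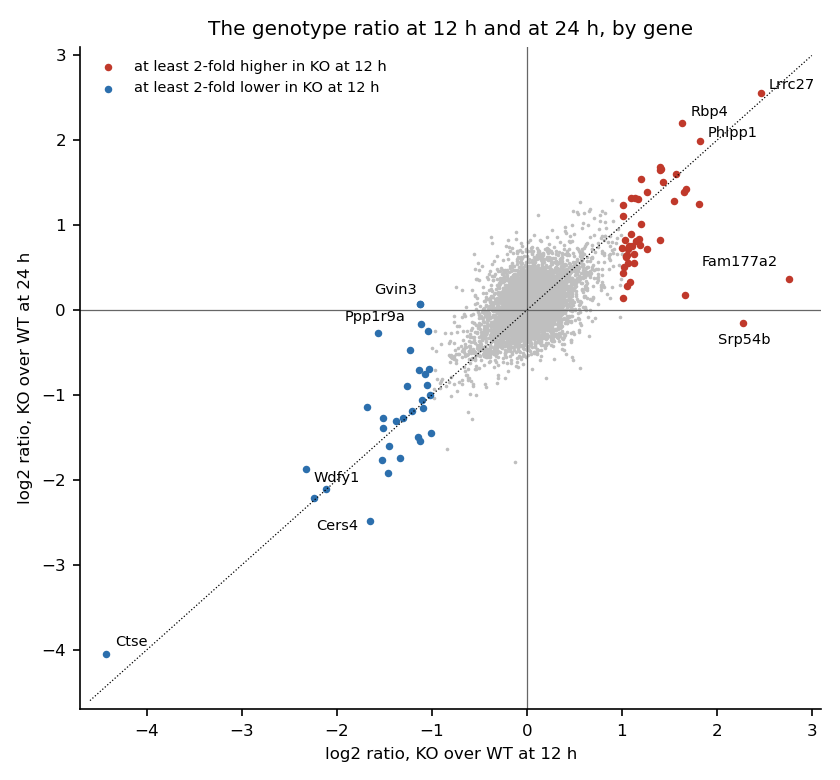
Ratio of the KO-labelled over the WT-labelled library at 24 h (vertical axis) against that at 12 h (horizontal axis), both log2 of CPM + 1, 1 point per member, with the dotted line where both are equal. Of the red points, at least 2-fold higher at 12 h, 44 of 45 lie above 0 at 24 h, the exception being Srp54b, and of the blue points 30 of 32 lie below 0, the exceptions being Gvin3 and Ppp1r9a.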

How the data were processed

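RNA-seq of bone marrow-derived macrophages gave 4 libraries, 1 for each genotype label and time of IL-4. The deposited table by the authors holds raw counts and FPKM for 14936 genes. HISAT2, StringTie 1.3.0, edgeR and mm10 are named in the submitters' processing notes; which tool counted, with which annotation and strand setting, is not given in the sources used here. FPKM values as deposited were used only as a check: their ratio to the counts followed the library totals, with a largest relative deviation of 9.86e-14. Comparisons used the counts.

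Counts were divided by library totals to CPM. Genes at 5 CPM or more in the KO- or WT-labelled 12 h library were members, and ratios were taken as log2 of CPM plus 1. With 1 library a group no test was made: 2-fold and 1.5-fold are rules of size, and exact binomial 95% intervals of fold changes, taken without the added 1, cover counting error only. At these depths 3 counts are 0.0753 CPM in the KO-labelled and 0.0718 CPM in the WT-labelled 12 h library.

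The 36 gene lists hold 949 entries, of which 932 were found, 5 under another symbol. The members and lists were chosen with earlier results of these data known. Genes were named from a rule that takes Phlpp1 and Phlpp2, the 15 members furthest above and below 0, up to 4 members of each list past 1.5-fold and its most abundant member, the 8 most abundant members past 1.5-fold, and the 8 past 2-fold that differ most at 24 h; not every gene it takes is printed. Further genes of a list, given to show its range, were picked after their values were seen. Positions are those of GENCODE M21 on GRCm38, for 14470 symbols with 1 position, and promoters those of RefSeq on GRCm38.p6. Alternatives were TMM, median-of-ratios scaling, totals without the 10 most abundant genes, a pseudocount of 0.25, and minima of 1 CPM, 10 CPM or none. Scripts were tested on simulated data. R 4.3.3 with edgeR 4.0.16 and DESeq2 1.42.0 (scaling factors only), and Python 3.11.15 with pandas 2.3.3, numpy 2.4.6, scipy 1.17.1 and matplotlib 3.10.9, were used.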

Additional observations from a re-analysis of the deposited data

Results flagged for a closer look

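A few results stood on opposite sides of 0 at 12 h and 24 h, and in none of them was the difference between the times tested. Gstp1, a glutathione transferase, had a ratio of KO-labelled over WT-labelled library of 0.69 at 12 h and -0.13 at 24 h. Srp54b, with its close copies, had 2.27 at 12 h and -0.15 at 24 h. Gvin3 had -1.12 at 12 h and 0.07 at 24 h, and the neuronal scaffold gene Ppp1r9a had -1.13 at 12 h and 0.07 at 24 h, on 1.91 CPM in the KO-labelled library and 5.36 CPM in the WT-labelled library at 12 h. The median ratio of interferon GTPases and HIN-200 sensors was -0.17 at 12 h and 0.17 at 24 h. That of MHC class II genes was -0.06 at 12 h and 0.20 at 24 h. That of Toll-like receptors and adaptors was -0.11 at 12 h and 0.06 at 24 h.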

How the results depend on the processing

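The counts of genes depended most on the minimum level, which also set how many genes were counted. With a minimum of 1 CPM, 79 of 11090 genes were at least 2-fold higher in the KO-labelled library, and 375 were 1.5-fold higher and 215 lower. With no minimum the same 3 counts were 79, 405 and 234 of 14936 genes. With a minimum of 10 CPM, 29 of 8215 genes were at least 2-fold higher. With the minimum of 5 CPM used above, it was 45 of 9390. Totals without the 10 most abundant genes gave 38 members 2-fold higher and 34 lower, and 165 and 146 at 1.5-fold. The share of members past 2-fold in either direction that had the same sign at 24 h was 96.1%, and 95.83% to 98.04% over the alternatives. Named genes were compared only under the alternatives that kept the minimum of 5 CPM. Of 124 named genes, 2 changed sign under some of these, Acly and Psap, both close to 0. Another 6 crossed 1.5-fold: Ccne1, Uhrf1, Ctsf, Itgb7, Timp1 and Adam19. A further 8 crossed 2-fold: Batf3, Ifit3b, Iigp1, Cfb, Dcstamp, Col4a1, Igfbp7 and Pkmyt1. Under the 3 other scalings (TMM, median of ratios, totals without the top 10), the median of the IL-4 receptor list changed sign and those of the other 35 lists did not; list medians were not recomputed under the other alternatives. No paired analysis was possible because each group had 1 library. For the same reason no library could be left out, and genotype, animal, culture and library preparation cannot be told apart.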
